A study of Mus musculus with 28 samples.

Results

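The pre-B cell receptor and its proximal signalling proteins were followed through the genes Vpreb1, Vpreb2, Vpreb3, Igll1, Cd79a, Cd79b, Syk, Btk and Blnk, which were chosen by symbol and make up 9 of the 55450 genes of the expression table. RNA-seq covered 12 libraries of the mouse Pre-B line C10, which descends from HAFTL cells, with 3 biological replicates at each of 0h, 1h, 12h and 48h. The induced groups were grown with 100 nM β-estradiol, 10 nM IL-3 and CSF-1 (dose not stated), whereas the 0h group was uninduced, so the transgene and the cytokines cannot be told apart. Every group, 0h included, carries the C/EBPαER transgene, rat C/EBPα joined to a hormone-binding domain of the estrogen receptor, which β-estradiol sends to the nucleus. Promoter Capture Hi-C (PCHi-C), which enriches chromatin contacts of restriction fragments that carry gene promoters, gave 1 merged list of contacts per time point. All values come from 1 cell line, and the comparisons with 0h share the same 3 uninduced libraries.

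In a pre-B cell the immunoglobulin heavy chain pairs with a surrogate light chain, made of a VpreB protein and λ5, because no light chain has been rearranged. The complex is held at the membrane by the signalling chains Igα and Igβ, whose cytoplasmic ITAM motifs are phosphorylated by Src family kinases and then bind the kinase Syk. Syk phosphorylates the adaptor Blnk, which brings Btk to its substrate phospholipase Cγ2. The receptor tests the heavy chain and drives proliferation, and macrophages use Syk and Btk behind other ITAM receptors.

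Levels are given in TPM, a unit that sums to the same total in each library. TPM correct for gene length and are relative to all other RNA in the library, and keep no record of sequencing depth. In each library the 20 most abundant genes held between 86.8% and 94.2% of the TPM, and over the 16415 genes tested the log2 fold change had a median of 0.59 (1h), 0.34 (12h) and -0.18 (48h). Median-of-ratios scaling moved these medians to 0.02, 0.07 and 0.07, and scaled values are given beside the members and the list counts, at the times where it changed a call or a direction. Of 8 Pre-B cell markers 7 fell by 48h and Bst1 rose, against 27.2% of all genes lower and 15.9% higher. The summed TPM of the list went from between 63.1 and 77.1 at 0h to between 22.1 and 27.2 at 48h. Bst1 alone had between 0.36 and 1.09 TPM at 0h, and 14.8, 11.8 and 16.0 at 48h. The 8 macrophage markers summed to between 3.34 and 4.61 TPM at 0h and between 190.4 and 268.6 at 48h. Of these, Msr1 and Cd14 were listed at 0 at 0h and passed the filter on low values through later libraries, and Adgre1, the gene of F4/80, was below it. The T cell and erythroid lists never summed above 0.09 TPM, and the mature B cell list summed to at most 3.05 TPM with Igkc at or near 0. The granulocyte list summed to 0 at 0h and 1h, to between 0.88 and 2.87 TPM at 12h and to between 0.92 and 2.93 at 48h, most of it S100a8 (1.78 and 1.96 TPM on average), with Mpo and S100a9 at 0 in every library. In bulk RNA, fewer cells of a type and less RNA per cell cannot be told apart.

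The surrogate light chain genes fell furthest. Vpreb1, Vpreb3 and Igll1 were each among the 5 most abundant members at 0h and were down to between 0.40 and 1.41 TPM in every library at 48h, and Vpreb2 was listed at 0 at 48h. Cd79a, the gene of Igα, fell later and less, Cd79b, the gene of Igβ, reached its lowest level at 1h and then rose, and Blnk reached its lowest level at 12h. Relative to 0h, the direction of Syk and Cd79a at 1h, and of Btk at 1h and 12h, depended on how the libraries were scaled. Of the 9 members, 2 were lower and 1 higher at 1h, against 1.41% and 24.1% of all genes tested. At 12h 7 were lower and 1 higher, against 7.82% and 22.3% of all genes. At 48h 7 were lower and none higher, against 27.2% and 15.9% of all genes (limma on log2(TPM + 0.1), Benjamini-Hochberg adjusted p under 0.05). After median-of-ratios scaling 5 members were lower at 1h, 7 at 12h and 6 at 48h, against 4.92%, 14.5% and 22.0% of all genes. Higher were no member at 1h or 12h and 1 at 48h, Syk, against 5.42%, 16.0% and 24.5%. Libraries did not overlap with 0h for 5 members on the lower and 2 on the higher side at 1h (3.28% and 40.8% of all genes), 7 and 1 at 12h (12.4% and 30.6%), and 7 and 0 at 48h (30.8% and 19.2%). Over the members the median log2 fold change was -0.39, -1.65 and -2.63 in time order, and -1.05, -1.97 and -2.22 when scaled.

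**Figure D1:**
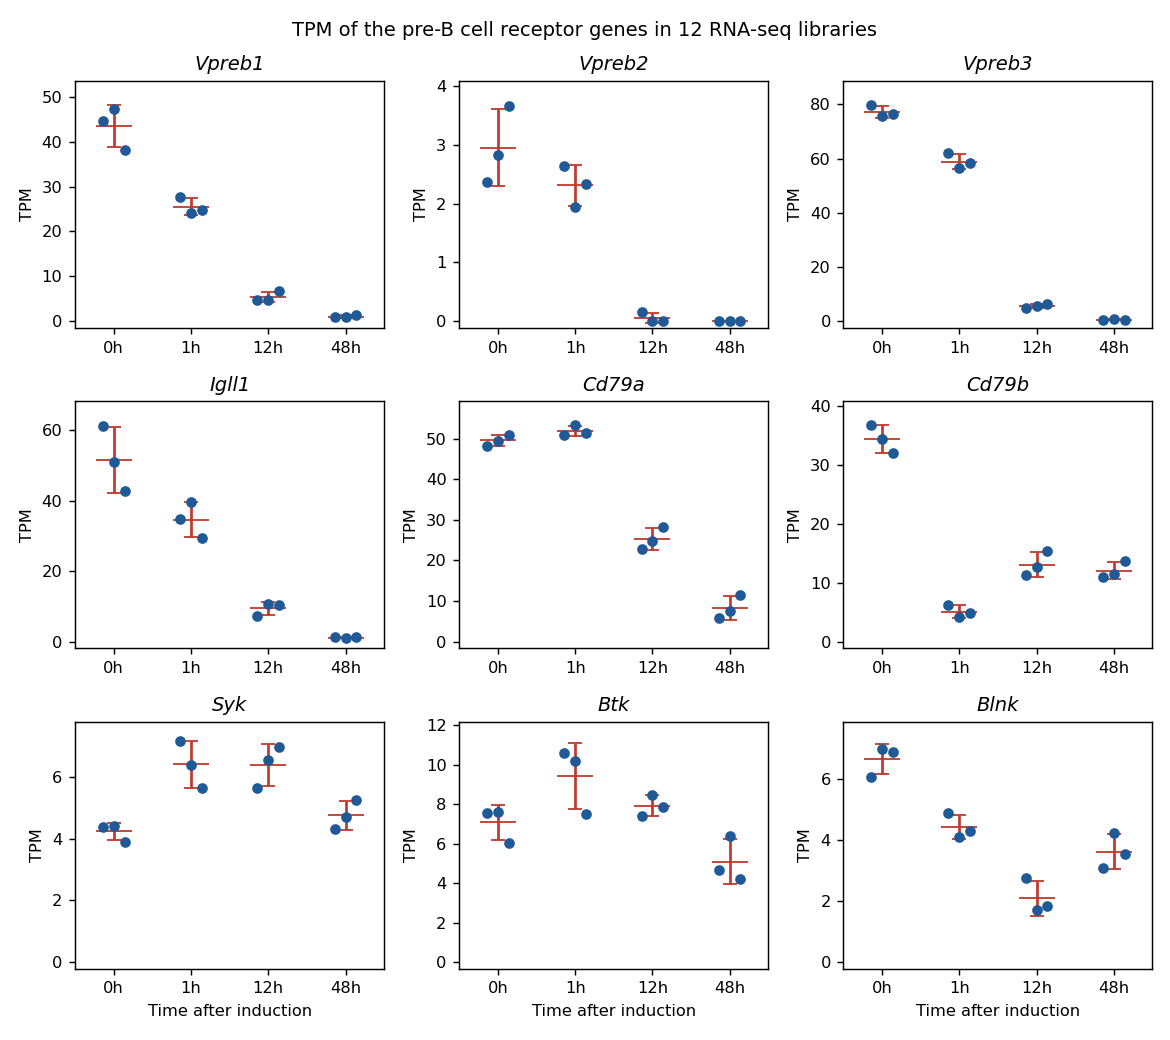
TPM of the 9 members (y axis, linear) by time after induction (x axis). Each point is 1 library, the wide bars are means and the error bars SD of 3 libraries. The surrogate light chain genes fall towards 0, Cd79b is lowest at 1h with 4.23 to 6.26 TPM, and Syk stays between 3.91 and 7.19 TPM.

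Vpreb1 encodes the V-like part of the surrogate light chain. It lies on chromosome 16 (16868403 to 16870843, minus strand, GRCm38), and its 5′ end overlaps that of Top3b on the other strand. Its TPM was 44.7, 47.4 and 38.3 at 0h, 27.7, 24.2 and 24.7 at 1h, 4.69, 4.76 and 6.72 at 12h, and 0.84, 0.82 and 1.41 at 48h. No library of one time point overlapped with those of another. Relative to 0h the log2 fold change was -0.76 at 1h (SE 0.22, adjusted p = 0.0271), -3.00 at 12h (SE 0.22, adjusted p = 2.31e-06) and -5.31 at 48h (SE 0.22, adjusted p = 1.05e-08, Benjamini-Hochberg, limma). The call at 1h was lost when any library of 0h or 1h other than 0h replicate 3 was left out, with adjusted p between 0.0546 and 0.0878 (limma), and it was stronger after median-of-ratios scaling (log2 fold change -1.42, adjusted p = 0.000355).

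Vpreb2 is a near copy of Vpreb1 on the same chromosome (17980428 to 17981273, plus strand). Of its 660 windows of 100 transcript bases, 97 (14.7%) are also in Vpreb1, where they are 7.75% of the windows, so the TPM estimate could divide reads between both genes. Vpreb2 had 2.37, 2.82 and 3.67 TPM at 0h and 2.64, 1.95 and 2.34 at 1h. At 12h it had 0.16 TPM in replicate 1 and was listed at 0 in the other libraries, and all 3 libraries at 48h were listed at 0. Its levels at 0h and 1h overlapped (log2 fold change -0.33, SE 0.37, adjusted p = 0.543), and it was lower at 12h (adjusted p = 6.70e-06) and at 48h (adjusted p = 9.88e-07, Benjamini-Hochberg, limma). No fold is given for these, since it rests on the 0.1 TPM added. The summed TPM of Vpreb1 and Vpreb2 was, in time order, 46.4 ± 4.19, 27.8 ± 2.20, 5.44 ± 1.11 and 1.02 ± 0.335 (SD, n = 3 each). The mean log2 sum was -5.55 at 48h relative to 0h (p = 0.1 by a two-sided exact permutation test, which with 3 libraries a group cannot go lower), and it was -5.13 after median-of-ratios scaling. 

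Igll1 encodes λ5, the constant part of the surrogate light chain. It lies beside Vpreb1 (16860671 to 16863985, minus strand). Its TPM was 61.2, 50.9 and 42.6 at 0h, 34.8, 39.6 and 29.4 at 1h, 7.38, 10.6 and 10.5 at 12h, and 1.17, 0.96 and 1.16 at 48h. The time points did not overlap. In log2 fold change the difference was -0.57 at 1h (SE 0.20, adjusted p = 0.0578), -2.43 at 12h (SE 0.20, adjusted p = 5.73e-06) and -5.42 at 48h (SE 0.20, adjusted p = 5.03e-09, Benjamini-Hochberg, limma). After median-of-ratios scaling the value at 1h was -1.23 and passed (adjusted p = 0.000615, limma), and it also passed without 0h replicate 3 (adjusted p = 0.0490). The ratio of Igll1 to Vpreb1 within a library, which no scaling between libraries can move, was between 1.07 and 1.37 at 0h, between 1.56 and 2.24 at 12h and between 0.823 and 1.39 at 48h. At 12h the ratio lay above its 0h range in all 3 libraries, and at 48h the ranges overlapped.

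Vpreb3 encodes a VpreB-like protein of the endoplasmic reticulum that binds free heavy chain in precursor B cells. It lies on chromosome 10 (75943057 to 75949657, plus strand). Its TPM was 79.6, 75.7 and 76.4 at 0h, 61.9, 56.4 and 58.4 at 1h, 4.93, 5.41 and 6.27 at 12h, and 0.40, 0.68 and 0.50 at 48h. It was the most abundant member at 0h. The log2 fold change was -0.39 at 1h (SE 0.18, adjusted p = 0.121), -3.79 at 12h (SE 0.18, adjusted p = 7.84e-08) and -6.97 at 48h (SE 0.18, adjusted p = 2.22e-10, Benjamini-Hochberg, limma), which was -6.63 after median-of-ratios scaling. All 3 libraries at 1h lay below all 3 at 0h although the test was not passed, and it was passed once the libraries were scaled by median of ratios (log2 fold change -1.05, adjusted p = 0.00117, limma). Per step, the difference between 1h and 12h (log2 fold change -3.39) and that between 12h and 48h (-3.19) were of similar size and both passed (adjusted p = 5.64e-07 and 5.09e-07, limma).

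Sequences upstream of the start are shown for Igll1, Vpreb3, Vpreb2 and Cd79a, which were lower at 48h. Those of Btk and Syk, which did not pass the test at 48h in the deposited TPM, are shown for comparison. Of the 9 members 8 had an entry in the RefSeq promoter table (GRCm38.p6), and in the 250 bases before the start 4 motifs were searched on both strands. Each sequence is the longest stretch of these that no annotated exon covers, cut to its last 150 bases where it was longer. It is given 5′ to 3′ on the strand of the gene, with the matches to the motifs in capitals. The stretch of Vpreb1 had 43 bases and is not shown.
Igll1 (chr16:16863986-16864135, minus strand, next to its start): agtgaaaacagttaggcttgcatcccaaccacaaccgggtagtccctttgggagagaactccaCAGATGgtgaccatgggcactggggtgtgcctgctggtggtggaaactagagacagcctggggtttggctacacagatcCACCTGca
Vpreb3 (chr10:75948150-75948299, plus strand, before the RefSeq start and within an intron of a longer annotated transcript): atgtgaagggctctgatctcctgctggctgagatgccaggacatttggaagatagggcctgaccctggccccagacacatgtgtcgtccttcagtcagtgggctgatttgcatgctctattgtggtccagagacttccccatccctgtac
Vpreb2 (chr16:17980315-17980427, plus strand): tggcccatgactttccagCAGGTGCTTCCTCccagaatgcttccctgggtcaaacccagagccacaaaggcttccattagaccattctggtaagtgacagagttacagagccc
Cd79a (chr7:24897247-24897380, plus strand): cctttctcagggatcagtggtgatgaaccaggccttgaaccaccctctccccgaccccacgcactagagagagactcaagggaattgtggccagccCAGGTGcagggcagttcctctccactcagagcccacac
Btk (chrX:134583141-134583290, minus strand, within an intron of a longer annotated transcript): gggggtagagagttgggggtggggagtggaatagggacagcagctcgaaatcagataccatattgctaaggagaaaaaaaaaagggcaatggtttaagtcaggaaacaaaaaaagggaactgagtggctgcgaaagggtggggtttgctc
Syk (chr13:52596703-52596852, plus strand, before a downstream RefSeq start): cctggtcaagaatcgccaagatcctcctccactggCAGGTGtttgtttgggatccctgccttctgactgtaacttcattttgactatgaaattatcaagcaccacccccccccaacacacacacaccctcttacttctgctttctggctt
The capitals in Igll1, Vpreb2, Cd79a and Syk are E-boxes (CAGNTG or its reverse complement), the motif of E proteins such as that encoded by Tcf3, and in Vpreb2 the E-box is followed without overlap by a reverse complement of GAGGAAG, a motif of the factor PU.1. An E-box stood in the 250 bases of 7 of the 8 members, all but Btk, against 44.8% of 32851 promoters, and that of Vpreb3 lies outside the stretch shown. The bases searched include annotated exons, which cover 190 of the 250 in Vpreb1 and all of them in Blnk. Syk had more than 1 entry searched, whereas the share over all promoters counts single entries. The PU.1 motif stood in 2 of 8, Vpreb1 and Vpreb2, against 10.6% of promoters. These promoters are near copies, since 153 of 156 aligned bases (98.1%) of both windows were identical, and they do not count as separate cases for this motif or the E-box. The letters CCCNNGGG, which the factor EBF1 binds, stood in 1 of 8 (Igll1, outside the stretch shown) against 11.8%, and TTGCNNAA, a motif of C/EBP factors, in none of 8 against 9.56%. These are matches of letters and not measured binding.

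Cd79a encodes Igα and lies on chromosome 7 (24897381 to 24902197, plus strand). Of its 1358 windows of 100 bases 24 are shared with the predicted gene Gm32220. Its TPM was 48.2, 49.5 and 50.9 at 0h, 51.0, 53.4 and 51.4 at 1h, 22.9, 24.9 and 28.2 at 12h, and 5.74, 7.58 and 11.4 at 48h. The 1h libraries lay just above those of 0h and the libraries of 12h and 48h lay below both. Relative to 0h the log2 fold change was 0.07 at 1h (SE 0.21, adjusted p = 0.843), -0.97 at 12h (SE 0.21, adjusted p = 0.00497) and -2.63 at 48h (SE 0.21, adjusted p = 1.44e-06, Benjamini-Hochberg, limma). After median-of-ratios scaling the value at 1h turned to -0.59 and did not pass (adjusted p = 0.0566), and at 12h and 48h it was -1.31 and -2.22, both passed.

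Cd79b encodes Igβ, the partner of Igα, and lies on chromosome 11 (106311341 to 106314762, minus strand). Its TPM was 36.8, 34.4 and 32.0 at 0h, 6.26, 4.23 and 4.80 at 1h, 11.3, 12.6 and 15.4 at 12h, and 10.9, 11.5 and 13.7 at 48h. All libraries at 1h were the lowest of the series, and those at 12h and 48h overlapped with each other and lay between 1h and 0h. In log2 fold change the difference was -2.75 at 1h (SE 0.18, adjusted p = 5.72e-06), -1.40 at 12h (SE 0.18, adjusted p = 0.000187) and -1.51 at 48h (SE 0.18, adjusted p = 4.11e-05, Benjamini-Hochberg, limma), and all 3 passed under each of 15 alternatives. From 1h to 12h Cd79b rose by 1.35 on the log2 scale (SE 0.18, adjusted p = 0.000392, limma), without overlap of the libraries. It was the 1 member called higher in that step, against 6.98% of all genes (12.1% without overlap), and 6 were called lower, against 15.0% (27.2% without overlap). From 12h to 48h its log2 fold change was -0.11 (adjusted p = 0.676), which turned to 0.63 and passed after median-of-ratios scaling (adjusted p = 0.00700, limma).

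The signalling chains, whose proteins pair, thus stood in changing proportion. Within a library, the ratio of Cd79b to Cd79a TPM was between 0.629 and 0.762 at 0h, between 0.0792 and 0.123 at 1h, between 0.492 and 0.544 at 12h and between 1.20 and 1.90 at 48h. The ranges of the 4 time points did not overlap. The ratio was lowest at 1h, when Cd79a had not passed the test, and above 1 only at 48h. It does not depend on how libraries are scaled to each other, and no test was made of it.

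**Figure D2:**
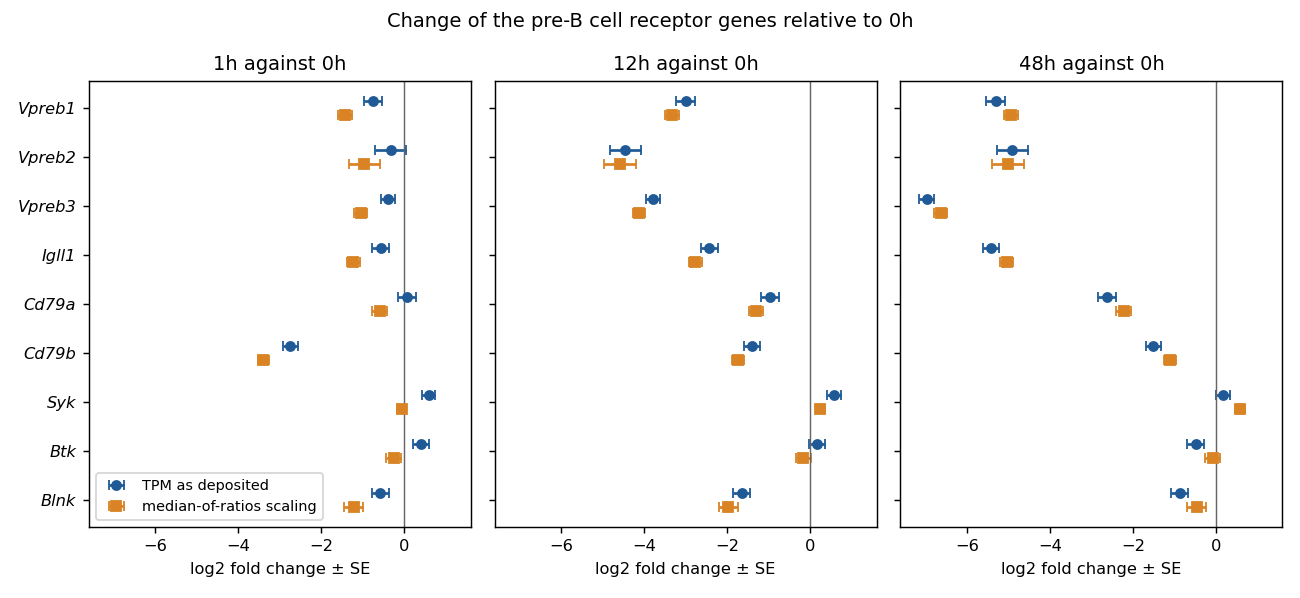
Log2 fold change relative to 0h (x axis) of the 9 members (y axis) at 1h, 12h and 48h, with SE from limma. Circles are TPM as deposited and squares median-of-ratios scaling. Scaling moves all members to the left at 1h and most to the right at 48h, and it changes the side of 0 for Cd79a, Btk and Syk at 1h and for Btk at 12h. Values of Vpreb2 at 12h and 48h rest on the 0.1 TPM added.

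Syk encodes the kinase that binds phosphorylated ITAMs and lies on chromosome 13 (52583173 to 52648792, plus strand). Its TPM was 4.38, 4.43 and 3.91 at 0h, 7.19, 6.39 and 5.66 at 1h, 5.66, 6.56 and 6.97 at 12h, and 4.32, 4.72 and 5.26 at 48h. The libraries of 1h and 12h lay above those of 0h, and those of 48h overlapped with 0h. The log2 fold change was 0.58 at 1h (SE 0.16, adjusted p = 0.0243), 0.58 at 12h (SE 0.16, adjusted p = 0.0200) and 0.16 at 48h (SE 0.16, adjusted p = 0.462, Benjamini-Hochberg, limma). The increase at 1h equalled the median of all genes (0.59), and after median-of-ratios scaling Syk was -0.069 at 1h (adjusted p = 0.780), 0.25 at 12h (adjusted p = 0.143) and 0.57 at 48h (adjusted p = 0.00226, limma). The time at which Syk was called higher therefore depended on the scaling. The call at 1h was also lost without 0h replicate 2 or 3 or 1h replicate 1 or 2 (adjusted p from 0.0504 to 0.0767), and that at 12h without 0h replicate 3 or 12h replicate 3 (adjusted p = 0.0543 and 0.0502, limma).

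Btk encodes the Tec family kinase that activates phospholipase Cγ2 and lies on chromosome X (134542336 to 134583570, minus strand). Its TPM was 7.57, 7.60 and 6.05 at 0h, 10.6, 10.2 and 7.48 at 1h, 7.41, 8.48 and 7.87 at 12h, and 4.64, 6.38 and 4.21 at 48h. Each later time point overlapped with 0h. Relative to 0h the log2 fold change was 0.40 at 1h (SE 0.20, adjusted p = 0.166), 0.17 at 12h (adjusted p = 0.575) and -0.49 at 48h (SE 0.20, adjusted p = 0.0737, Benjamini-Hochberg, limma). At 48h it passed without 48h replicate 2 (-0.66, adjusted p = 0.0236), and it was -0.081 when scaled by median of ratios (adjusted p = 0.754, limma). From 12h to 48h Btk was lower by this test (log2 fold change -0.65, SE 0.20, adjusted p = 0.0259), 1 of 5 members lower in that step against 31.7% of all genes. In 6 members the 48h libraries lay wholly below those of 12h, against 39.2% of all genes. That call was lost without 12h replicate 2 or 3 or 48h replicate 1 or 3 (adjusted p from 0.0587 to 0.0766), and after median-of-ratios scaling the value was 0.085 (adjusted p = 0.798, limma).

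Blnk encodes the adaptor that links Syk to Btk and phospholipase Cγ2 and lies on chromosome 19 (40928927 to 40994535, minus strand). Its TPM was 6.07, 6.98 and 6.87 at 0h, 4.87, 4.09 and 4.29 at 1h, 2.75, 1.71 and 1.82 at 12h, and 3.07, 4.21 and 3.55 at 48h. The libraries of 12h were the lowest, and those of 48h lay above 12h and below 0h. In log2 fold change the difference was -0.58 at 1h (SE 0.21, adjusted p = 0.0605), -1.65 at 12h (SE 0.21, adjusted p = 0.000133) and -0.87 at 48h (SE 0.21, adjusted p = 0.00496, Benjamini-Hochberg, limma). From 12h to 48h Blnk rose by 0.78 on the log2 scale (SE 0.21, adjusted p = 0.0123), the 1 member called higher in that step, against 4.10% of all genes (5.81% by libraries without overlap). With median-of-ratios scaling the value at 1h was -1.22 and passed (adjusted p = 0.00639), that at 48h was -0.47 and did not (adjusted p = 0.120), and the rise from 12h to 48h was 1.50 (adjusted p = 0.000749, limma). The ratio of Blnk to Syk within a library was between 1.39 and 1.76 at 0h, between 0.640 and 0.758 at 1h, between 0.261 and 0.486 at 12h and between 0.675 and 0.892 at 48h, so Blnk exceeded its upstream kinase in TPM at 0h and not later.

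The order of the levels turned over in 48h. At 0h Vpreb3 led with 77.3 ± 2.098 TPM (SD, n = 3), Igll1, Cd79a and Vpreb1 followed with 51.6 ± 9.32, 49.5 ± 1.33 and 43.5 ± 4.70 and Cd79b had 34.4 ± 2.39. Igll1 overlapped with Cd79a, whereas Cd79a did not with Vpreb1 nor Vpreb1 with Cd79b. Btk, Blnk, Syk and Vpreb2 had between 2.95 and 7.07 TPM on average. At 48h Cd79b led with 12.0 ± 1.45 TPM (SD, n = 3), followed by Cd79a with 8.23 ± 2.88, Btk with 5.08 ± 1.15 and Syk with 4.77 ± 0.472, each of which overlapped with its neighbours in this order. Blnk had 3.61 ± 0.572 TPM and each surrogate light chain gene 1.10 or less on average.

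The partners of the receptor were counted in lists of pathway genes, in which genes under a mean of 0.1 TPM were left untested. In the list of the heavy chain and the Src family kinases, 2 of the 3 genes tested fell and 1 rose at 48h, both as deposited and scaled, and Blk was below the filter. Of all genes 27.2% were lower and 15.9% higher at 48h, and 22.0% and 24.5% after median-of-ratios scaling, and the counts of each list stand beside these shares. Ighm, the gene of the μ heavy chain that the surrogate light chain pairs with, had 64.0, 55.3 and 49.1 TPM at 0h, 41.3, 42.0 and 38.5 at 1h, 3.82, 4.54 and 4.70 at 12h, and 10.4, 12.8 and 13.5 at 48h. It was lowest at 12h (log2 fold change -3.66) and higher again at 48h, when it was still below 0h (log2 fold change -2.19, SE 0.16, limma with Benjamini-Hochberg adjustment, as for all values of this paragraph), and the ratio of Vpreb1 to Ighm TPM was between 0.699 and 0.857 at 0h and between 0.0643 and 0.104 at 48h. Lyn, the Src family kinase that phosphorylates ITAMs and also inhibitory receptors, had 7.21, 7.28 and 6.97 TPM at 0h, 33.6, 34.5 and 30.7 at 1h, 44.6, 51.9 and 55.4 at 12h, and 28.5, 37.2 and 34.9 at 48h. It rose at each time (log2 fold change 2.19, 2.80 and 2.21), and after median-of-ratios scaling by 1.53, 2.47 and 2.62. Fyn fell by 1.11 at 48h, and by 0.71 when scaled.

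Of 7 adaptors 1 fell, 2 rose and 4 did not pass at 48h, and after median-of-ratios scaling 4 rose and none fell. The fall, that of Bank1, was lost without 0h replicate 1 or 48h replicate 3 (adjusted p = 0.0516 and 0.0631, limma). The rise of Lat2 was lost without any 1 library of 0h or 48h (adjusted p from 0.0588 to 0.108, limma). Among the adaptors Dapp1, which binds the products of phosphoinositide 3-kinase, was higher by 1.07 on the log2 scale (adjusted p = 0.0274, limma). That call was lost without 0h replicate 1 (0.98, adjusted p = 0.0791), 0h replicate 3 (0.93, adjusted p = 0.0934) or 48h replicate 3 (0.66, adjusted p = 0.0972, limma). Of 7 enzymes tested 1 fell, 2 rose and 4 did not pass, and scaled 3 rose and none fell. The rise of Rasgrp3 was lost without 0h replicate 2 or 48h replicate 2 or 3 (adjusted p from 0.0602 to 0.0691, limma). The call of Plcg2 was lost without replicate 1 or 2 of 0h or of 48h (adjusted p from 0.0515 to 0.0666, limma). Plcg2, the substrate of Btk, went from 15.0 ± 0.973 to 10.8 ± 0.818 TPM by 48h (SD, n = 3 each; log2 fold change -0.47, adjusted p = 0.0232, limma), which was -0.06 after median-of-ratios scaling (adjusted p = 0.672), and Pik3r1, a regulatory subunit of phosphoinositide 3-kinase, was higher by 1.23 (adjusted p = 0.0126, limma), a call that was lost without 0h replicate 3 (0.94, adjusted p = 0.0582) or 48h replicate 2 (1.00, adjusted p = 0.0587, limma).

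Among 8 inhibitors of the receptor 4 fell, 1 rose and 3 did not pass at 48h, and scaled 4 fell and 2 rose. Cd22, a lectin that recruits the phosphatase SHP-1, went from 10.2 ± 1.75 to 0.897 ± 0.397 TPM (SD, n = 3 each; log2 fold change -3.44, SE 0.32, limma). Inpp5d, the gene of the lipid phosphatase SHIP1, and Cd72 fell by 1.98 and 1.67, and Csk, which inhibits Src family kinases, by 0.86, and by 0.46 when scaled. The call of Csk was lost without 48h replicate 1 (adjusted p = 0.0540, limma). Fcgr2b, the inhibitory Fc receptor that B cells and macrophages share, had 9.87, 6.96 and 5.60 TPM at 0h, 34.1, 34.6 and 24.5 at 1h, 51.3, 48.2 and 60.0 at 12h, and 89.7, 103.8 and 98.3 at 48h. Its libraries rose without overlap from each time point to the next, by 3.72 on the log2 scale at 48h (SE 0.21, limma), and by 4.13 after median-of-ratios scaling.

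The list of ITAM signalling outside the B lineage holds 3 genes, Fcer1g, Lcp2 and Card9, that were listed at 0 at 0h and passed the filter on low values through later libraries, so no count over the list is given. Tyrobp, the gene of the ITAM adaptor DAP12, was at 0 in 2 of the 3 libraries at 0h and at 0.31 TPM in the other, at 0 in all at 1h, at 10.97, 14.7 and 18.6 TPM at 12h, and at 49.3, 50.4 and 93.3 at 48h. Fcer1g, the gene of the Fc receptor γ chain, which also bears an ITAM, was listed at 0 at 0h, had 0.40 to 0.75 TPM at 12h and 11.5, 12.3 and 13.7 at 48h. At 48h all 3 libraries had between 6.65 and 8.59 times as much Tyrobp as Cd79a TPM, against at most 0.00643 at 0h. Lcp2, which encodes SLP-76, a relative of Blnk, was listed at 0 at 0h and had 5.26, 4.73 and 5.28 TPM at 48h, and exceeded Blnk in TPM in all 3 libraries (median ratio 1.49). Tec, a kinase of the family of Btk, had 2.34, 1.41 and 1.36 TPM at 0h and 9.19, 6.97 and 5.62 at 1h, and was higher than 0h by 2.04 at 1h, 2.16 at 12h and 2.02 at 48h (log2, limma). Clec7a, the gene of the Syk-coupled receptor dectin-1, went from 0.800 ± 0.369 to 36.9 ± 3.13 TPM (SD, n = 3 each). Zap70, the T cell relative of Syk, had at most 0.49 TPM in any library and did not pass (adjusted p = 0.742, limma).

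**Figure D3:**
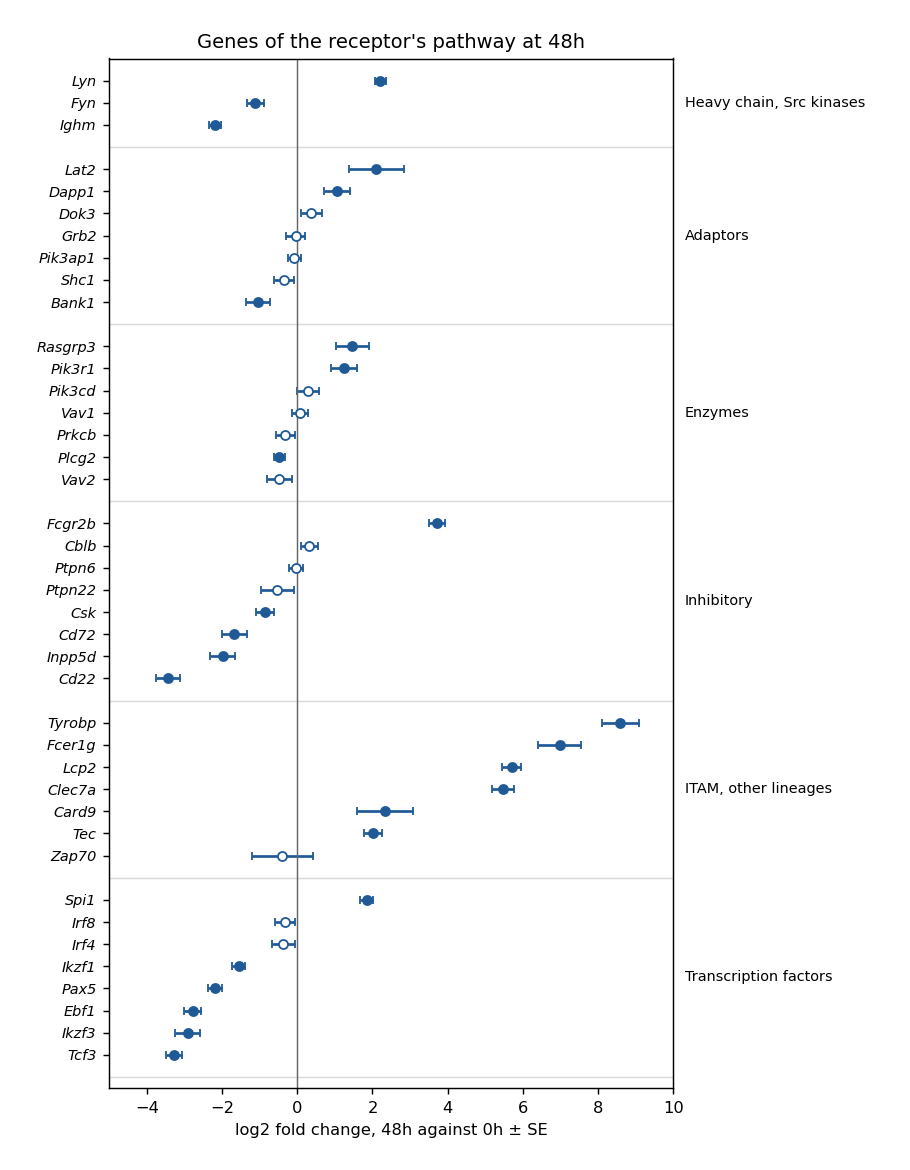
Log2 fold change at 48h relative to 0h with SE (x axis) for the tested genes of 6 lists of pathway genes (y axis). Filled circles passed the test (limma, adjusted p under 0.05) and open circles did not. Fcgr2b (3.72) and Lyn (2.21) lie to the right, and Plcg2 loses its call after median-of-ratios scaling. Values of Fcer1g, Lcp2 and Card9, which were listed at 0 at 0h, and of Tyrobp, at 0 in all but 1 library of 0h, rest on the 0.1 TPM added. The call of Card9 was lost without any 1 library of 0h (adjusted p from 0.0582 to 0.0609, limma).

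Transcription factors known to act on the surrogate light chain genes formed the last list. Of its 8 genes 5 fell, 1 rose and 2 did not pass at 48h, with the same counts when scaled. Of all genes 27.2% were lower and 15.9% higher, and 22.0% and 24.5% when scaled. Tcf3, which encodes the E proteins E12 and E47, had, in time order, 18.2 ± 0.697, 12.2 ± 1.10, 5.24 ± 0.601 and 1.87 ± 0.637 TPM (SD, n = 3 each; log2 fold change -3.27 at 48h, SE 0.21, limma). Ebf1 had 15.7 ± 2.70, 13.9 ± 2.21, 3.61 ± 1.05 and 2.19 ± 0.327 TPM (SD, n = 3 each; log2 fold change -2.78). Pax5 fell by 2.19 and Ikzf1, the gene of Ikaros, by 1.55. Spi1, the gene of PU.1, had 7.81 ± 0.953, 28.7 ± 4.14, 36.3 ± 4.68 and 28.4 ± 4.45 TPM (SD, n = 3 each) and rose by 1.84 at 48h (SE 0.18, limma). Their part in the change of the members was not tested.

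In PCHi-C each member had an annotated start in a bait, in 8 of the 18175 bait fragments in all, since Vpreb1 and Igll1 share 1 bait (chr16:16857561-16872230) with Top3b. The baits of Vpreb3 (with Mmp11 and Chchd10), Cd79a (with Arhgef1) and Btk (with Rpl36a) also hold starts of other genes, so contacts cannot be assigned to 1 gene there. The RefSeq starts of Vpreb3 and Syk next to the sequences shown lie in fragments that are not baits, so the counts of their baits are not those of these starts. A contact is a pair of fragments in the authors' list of a time point, each list was made from 2 merged replicates, and there is no replicate error and no test. The members' baits had 106, 89, 73 and 54 contacts in time order, while the whole lists held 138769, 137836, 131598 and 144072. Their number thus fell at each time although the list of 48h was the longest. At 48h 7 of the 8 baits had fewer contacts than at 0h, against 48.1% of the 15157 baits with a contact at 0h. Of the 106 contacts at 0h, 57 (53.8%) were found again at 1h, 45 (42.5%) at 12h and 42 (39.6%) at 48h, against 57.6%, 53.2% and 55.9% of all contacts. Contacts were not matched for their score in this comparison. The share of 39.6% at 48h has a 95% Wilson interval from 30.8% to 49.1%, which covers counting error only and treats contacts of 1 bait as separate. With a fragment within 10 kb counted as the same, the shares were 83.0%, 77.4% and 68.9%, against 83.8%, 79.9% and 78.3% of all contacts. Over the 166 distinct contacts, 26 were listed at all 4 time points, 38 only at 0h and 6 only at 48h. The matching shares over all contacts were not computed, so these counts only describe the members' baits.

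**Figure D4:**
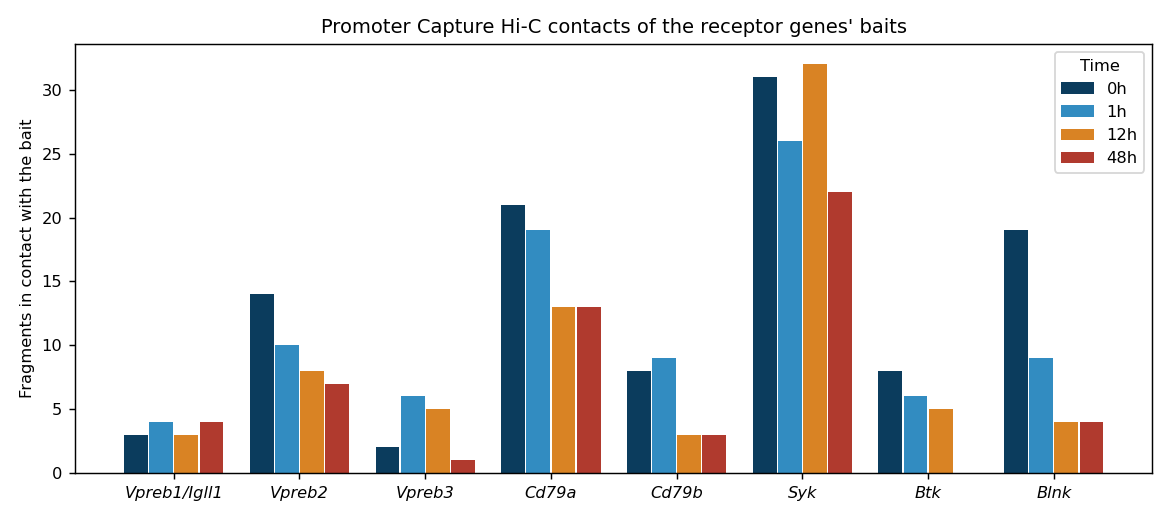
Number of fragments in contact with each of the 8 baits (y axis, from 0) at 0h, 1h, 12h and 48h (bars). Blnk goes from 19 to 4 and Btk from 8 to 0, the bait shared by Vpreb1 and Igll1 has 3 or 4 at each time, and Syk keeps between 22 and 32.

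The bait of Vpreb1 and Igll1 had 3, 4, 3 and 4 contacts. Those with the promoter fragments of Ppm1f and Yars2 were listed at all 4 times, and both genes, which encode a phosphatase and a mitochondrial tRNA synthetase, were lower at 48h (log2 fold change -1.90 and -2.18, adjusted p = 0.00809 and 0.00108, limma). The bait of Vpreb2 had 14, 10, 8 and 7 contacts, and 15 of its 16 distinct contacts lay upstream. Within 30 kb upstream it had 6, 5, 3 and 1 contacts in time order, and between 30 and 80 kb upstream 7, 4, 5 and 6. With a fragment within 10 kb counted as the same, 13 of the 14 contacts at 0h were listed at 48h. The distance ranges used for Vpreb2 and the baits below were not planned, differ by bait, and have no share over all baits beside them. Vpreb3 had 2, 6, 5 and 1, of which that with the promoter fragment of Ggt5 was listed at all times, and Ggt5 was listed at 0 in the RNA of every library.

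The bait of Cd79a had 21, 19, 13 and 13 contacts. Between 40 and 80 kb downstream it had 9, 10, 10 and 8, of which 8 were listed at all 4 times, and the contact with the highest CHiCAGO score at 0h (27.4) was that with the promoter fragment of Rabac1. The contacts further away, from 200 to 800 kb downstream and from 300 to 600 kb upstream, went from 8 at 0h to 2 at 1h, 0 at 12h and 1 at 48h. Rabac1, which encodes a Golgi trafficking protein, had 4.25, 6.84, 15.3 and 4.51 TPM on average in time order. The bait of Cd79b had 8, 9, 3 and 3 contacts, of which those with the promoters of Icam2 (score 22.5 at 0h) and Prr29 were listed at all times. Its count at 1h, when Cd79b was lowest in RNA, was 9.

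The bait of Syk had 31, 26, 32 and 22 contacts, the most of the 8 at each time. Of its 57 distinct contacts 36 lay between 737 and 942 kb upstream, around the promoters of Sema4d, Gadd45g and, at the far end, Cks2. These contacts numbered 22, 22, 21 and 15. Sema4d and Gadd45g each had a promoter fragment in contact with Syk at all 4 times, and the other fragments that hold a Sema4d start were listed at fewer. The promoter fragment of Cks2 was listed at 1h, 12h and 48h, and the bait beside it, over Cks2, at all 4 times. Sema4d, a semaphorin, rose by 1.09 on the log2 scale at 48h (SE 0.23, adjusted p = 0.00213, limma), and Gadd45g had at most 0.19 TPM on average at any time. The bait of Blnk had 19, 9, 4 and 4 contacts. Those between 140 and 300 kb downstream, most of them over Cc2d2b or Ccnj, numbered 11, 4, 2 and 2 in time order, and within 30 kb downstream, inside Blnk, 6, 2, 2 and 2. The contacts of Blnk with the promoter of Pik3ap1, which encodes an adaptor of phosphoinositide 3-kinase downstream of the receptor (score 5.06), and with a fragment of Dntt (score 7.54) were listed at 0h alone. Of the 4 baits with 10 or more contacts at 0h, 2 (Blnk and Vpreb2) had at most 50% as many at 48h, against 19.9% of 5420 such baits. The bait of Btk had 8, 6, 5 and 0 contacts, and no contact at 48h was found for 1.01% of the 8769 baits with 5 or more at 0h. Up to 12h, 3 to 5 of the contacts of Btk lay within 50 kb downstream, inside or beside the gene. Btk RNA had a log2 fold change of -0.49 at 48h (adjusted p = 0.0737) and of -0.081 when scaled (adjusted p = 0.754, limma). Blnk RNA rose from 12h to 48h while its count of contacts stayed at 4. Whether counts of contacts and RNA levels moved together was not tested.

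**Figure D5:**
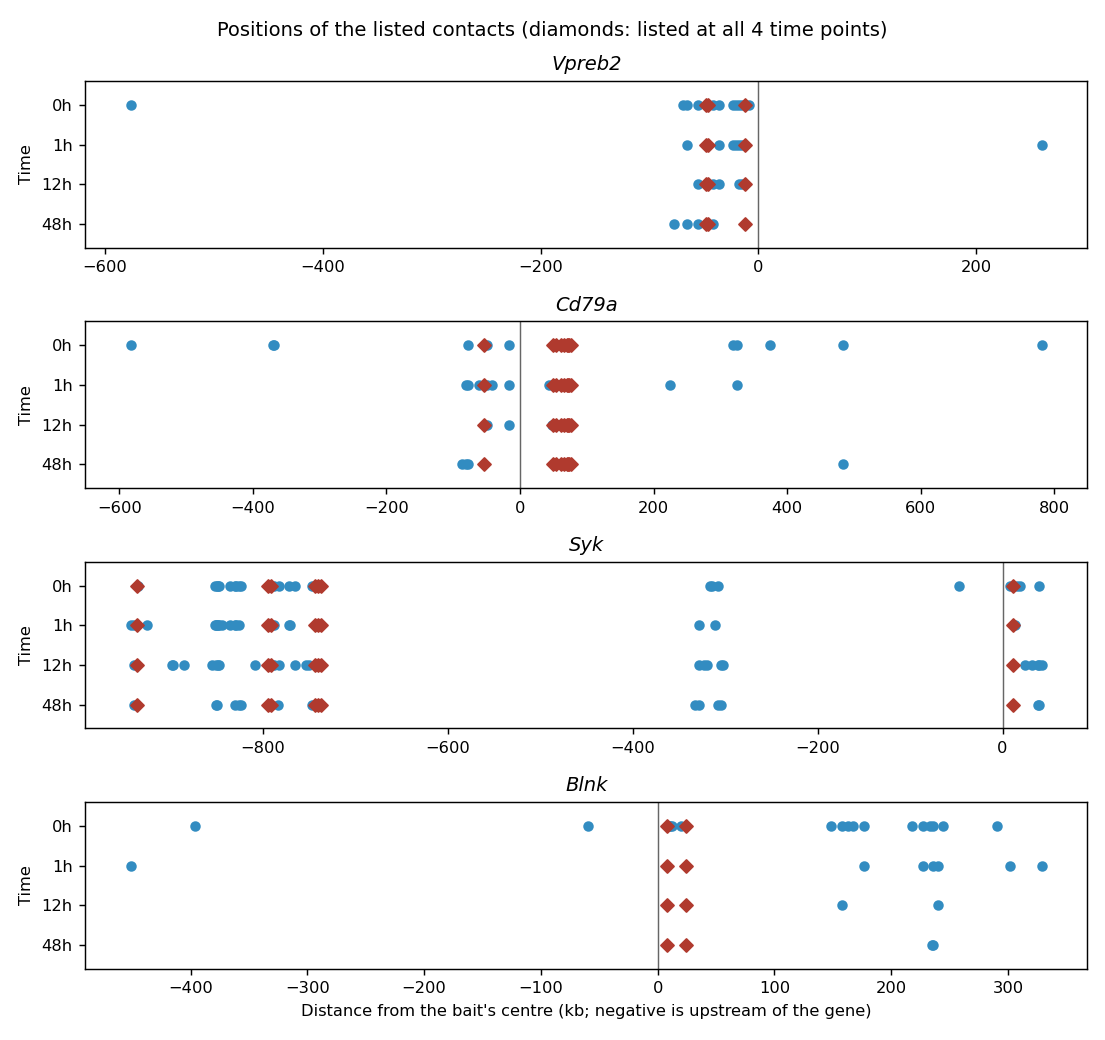
Distance of the contacts from the centre of the bait (x axis, kb, negative upstream of the gene) at each time point (y axis) for Vpreb2, Cd79a, Syk and Blnk. Diamonds are contacts listed at all 4 times. The far contacts of Cd79a and the downstream contacts of Blnk are mostly at 0h and 1h, and most of those of Syk lie 737 kb or more upstream at every time.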

How the data were processed

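RNA-seq libraries (3 per time point) and PCHi-C lists (1 per time point) were used; the Hi-C maps were not. Per the labels, the authors trimmed reads (Trim Galore 0.6.2), aligned them to mm10 (HISAT2 2.1.0) and deposited RSEM TPM for Ensembl genes, which were tested with limma although the authors had tested counts with DESeq2. In PCHi-C, 2 replicates were merged and the authors called interactions from HindIII fragments with CHiCAGO. The deposited 0h list holds the CHiCAGO score, 5 or more, and the later lists as deposited give integers whose unit is unnamed, so only presence in a list was compared.

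The 16415 genes averaging 0.1 TPM or more were modelled on log2(TPM + 0.1) with limma 3.58.1 in R 4.3.3 (1 model of the 4 time points, eBayes with a trend, Benjamini-Hochberg adjustment over all genes, threshold 0.05). Fold changes on this scale understate those of low genes. The summed TPM of both VpreB copies was compared by an exact permutation test. Other steps used pandas 2.3.3, numpy 2.4.6 and scipy 1.17.1 under Python 3.11.15. Baits were those holding an annotated start of a member (GENCODE M21, GRCm38). The model was tested on simulated data. Replicates are labelled as biological, with no further detail. Alternatives varied the pseudocount, filter, scaling, trend, libraries, replicate block and threshold.

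Members and lists were chosen with earlier results of these data known. Values are given for all members, for Ighm, Lyn, Fcer1g, Tyrobp and Zap70, in each pathway list for up to 3 genes with the largest increase and 3 with the largest decrease among those called at 48h with a mean TPM of at least 1, for genes whose promoters contact a member's bait at all 4 times, and for the 2 genes most like each member. Named outside this rule, after their values were seen, were Clec7a, Tec, Ikzf1, Csk, Card9, Bank1, Lat2, Rasgrp3, Cks2, Bst1, Msr1, Cd14, Adgre1, Igkc, Mpo, S100a8, S100a9, Pik3ap1 and Dntt. Some genes that the rule names, and the lists they belong to, are not reported here.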

Additional observations from a re-analysis of the deposited data

Results flagged for a closer look

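Cd79b and Blnk were picked out because consecutive steps went in opposite directions, each past the threshold, and the difference of the steps passed as well (limma with Benjamini-Hochberg adjustment). For Cd79b the step from 1h to 12h exceeded that from 0h to 1h by 4.10 on the log2 scale (SE 0.32, adjusted p = 6.79e-05), and by 5.06 after median-of-ratios scaling (adjusted p = 2.65e-06). All 3 libraries fell below 0h at 1h and all 3 lay above 1h at 12h. For Blnk the step from 12h to 48h exceeded that from 1h to 12h by 1.85 (SE 0.36, adjusted p = 0.00807), and by 2.25 after that scaling (adjusted p = 0.00485). No cause was tested.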

How the results depend on the processing

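The scaling between libraries moved results most. Members lower at 1h numbered 5 with a pseudocount of 1, 5 after median-of-ratios scaling, 5 after rescaling without the 20 most abundant genes, 4 with a filter at 1 TPM, 4 with the 6 libraries compared, 1 with a log2 fold change beyond 1 and 1 to 3 with a library left out. Members higher at 1h and at 12h numbered 0 after either scaling or beyond a log2 fold change of 1, and 0 to 1 with a library left out. At 48h 1 was higher after either scaling. In the step from 12h to 48h 2 were higher after median-of-ratios scaling, and 0 with only the libraries compared or beyond 1. With a library left out, 7 members were lower at 12h and 7 to 8 at 48h, 6 were lower and 1 higher from 1h to 12h, and 4 to 6 were lower and 1 higher from 12h to 48h. Some log2 fold changes turned in sign, and of the turned values that of Cd79b under median-of-ratios scaling passed the test. At 1h, median-of-ratios scaling and rescaling gave -0.59 and -0.42 for Cd79a and -0.25 and -0.086 for Btk, and the former -0.069 for Syk. At 12h they gave -0.17 and -0.047 for Btk. From 1h to 12h they gave 0.088 and 0.039 for Btk and 0.32 and 0.27 for Syk, which was -0.088 to 0.082 with a library left out (above 0 without replicate 1 of 1h or 12h). From 12h to 48h they gave 0.63 (adjusted p = 0.00700, limma) and 0.44 for Cd79b, which was -0.21 to 0.0072 with a library left out (above 0 without 12h replicate 3), and 0.32 and 0.13 for Syk, and the former 0.085 for Btk. Contacts at 0h that were also listed at 1h, 12h and 48h made up 83.0%, 77.4% and 68.9% within 10 kb. Of the 23 contacts with a score of at least 10 they made up 91.3%, 87.0% and 78.3%. For all contacts at that score no share was computed. Without the bait of Syk, an alternative added after seeing the data, the contacts listed again made up 53.3%, 41.3% and 36.0%. The summed TPM of both VpreB copies kept its direction under all settings (log2 difference -5.80 to -5.41 with a library left out).

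The replicate block changed 1 call of a member, that of Btk at 48h (adjusted p = 0.0466, limma). Same-numbered libraries of different time points did not all deviate together (r from -0.01 to 0.26 over 18 pairs; above 0.1 in 2 of the 6 pairs of replicate 1, 0 of 6 of replicate 2 and 5 of 6 of replicate 3), and 7 of 12 libraries correlated best with their own number. TPM hold no depth, so no detection limit can be given, and merged PCHi-C lists give no replicate error.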

Other observations

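The genes whose log2(TPM + 0.1) followed each member most closely over the 12 libraries, out of 9331 averaging 1 TPM or more, are given as a description, with Pearson's r. The libraries share the 4 time points, so a high r says that 2 genes had like time courses. These r were taken on TPM as deposited and were not repeated after scaling. The directions of Btk and Syk depended on the scaling, and whether their likeness to other genes does was not tested. Vpreb1 was followed by Igf2os (0.994) and by Tcf3 (0.994), the E protein gene. Vpreb2 was followed by Ptprcap (0.983), a partner of the phosphatase CD45, and Gm43041 (0.982), and Igll1 by Pno1 (0.991) and Pou2af1 (0.991), the B cell coactivator, which averaged 28.9 TPM at 0h and 2.47 TPM at 48h. Vpreb3 was followed by the histone genes Hist1h1a (0.995) and Hist2h2aa1 (0.995), and Cd79a by Hist1h2ap (0.998) and Hist1h2bl (0.998), of which Hist1h2ap averaged 175.0, 193.3, 44.2 and 7.07 TPM in time order. Histone genes have near-identical copies, so these values are uncertain.

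Cd79b, with its low at 1h, was followed by Lbh (0.972; 4.36, 1.33, 2.20 and 2.48 TPM on average) and Cbfa2t3 (0.946; 2.48, 0.09, 0.62 and 0.87 TPM). Blnk, with its low at 12h, was followed by Il7r (0.935), the interleukin-7 receptor gene, with 7.48, 1.05, 0.01 and 0.78 TPM, and by Cd72 (0.922), an inhibitory co-receptor, with 12.6, 5.64, 1.98 and 3.87 TPM. Btk was followed by Naa15 (0.969) and Reep4 (0.958), and Syk by Cbl (0.965), the ubiquitin ligase that acts on activated Syk, with 4.97, 12.2, 15.1 and 7.45 TPM, and by Arid3a (0.962).

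The RefSeq start of Vpreb3 lies in a fragment next to its bait (chr10:75946464-75950095) that is not itself a bait. It was in contact with 7, 7, 4 and 2 baits in time order, those of Ggt5 at all times and of Mif, Derl3 and Gucd1 up to 12h.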
